A study of Homo sapiens with 10 samples.

Results

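The 44 protein-coding genes whose GENCODE symbols have the form COLnAm, that is, the chains of the collagen family, were followed among the 78932 gene identifiers of a count table from cardiomyocytes. The cells came from the human embryonic stem cell line H1 and were beating when they were transfected on day 9 of differentiation. There were 5 control libraries, from cells given 50 nM of a control GapmeR (the labels give their genotype as WT), and 5 knockdown libraries, from cells given the same dose of a GapmeR that targets CLIPPER, an RNA. A GapmeR is an antisense oligonucleotide that directs RNase H to the RNA it pairs with. All cells were harvested 48 hours after transfection, and both groups share the cell line, the dose and the transfection reagent. All 44 chain genes were present as rows, and 38 of them had enough counts to be tested.

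Collagens are the main structural proteins of the extracellular matrix. Their chains carry long repeats with glycine at regular positions and wind around each other into a rope-like helix inside the endoplasmic reticulum, after hydroxylation of prolines and lysines. Fibrillar collagens form the banded fibrils of the heart's interstitium, collagen IV forms the sheet-like network of the basement membrane that surrounds each cardiomyocyte, and other classes decorate fibrils, form filaments or sit in the plasma membrane. In the heart most fibrillar collagen is made by fibroblasts, while cardiomyocytes and endothelial cells contribute to the basement membrane.

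Each library held between 32879710 and 45052044 counts. Levels are given as CPM, counts per 1e6 counts of a library, scaled by TMM (trimmed mean of M-values) factors, and a single count was worth about 0.0259 CPM. Of 21033 genes tested with edgeR's quasi-likelihood test, 79.7% differed at an adjusted p below 0.05, 40.1% being higher and 39.6% lower in the knockdown. Fold changes are therefore relative to the bulk of genes, and in bulk samples fewer cells of a type and less RNA per cell cannot be told apart. Cardiomyocyte markers were abundant in both groups (the summed level of 13 genes was 39172 to 53380.0 CPM in the controls and 15172 to 24734 CPM in the knockdown). The level of the CLIPPER RNA was not analysed here, so the group labels were not checked against it. Genes of the mitochondrial genome took 10.03% to 12.2% of the counts of control libraries, 11.5% and 10.9% of those of knockdown replicates 1 and 2, and 16% to 17.5% of those of the other 3 knockdown libraries. Counts of chains are therefore also given without knockdown replicates 1 and 2.

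Most collagen chain genes were lower in the knockdown. Of the 38 tested genes, 28 fell and 3 rose, against 39.6% and 40.1% of all tested genes, and 7 did not pass. The fall was at least 2-fold for 22 genes and no rise reached 2-fold. The median log2 fold change was -1.26 over the 38 genes and 0.0056 over all tested genes. The 3 genes that rose were COL1A2, COL6A6 and COL9A3, and the 7 that did not pass were COL1A1, COL2A1, COL11A2, COL7A1, COL9A2, COL21A1 and COL17A1. Groups did not overlap in 29 of the 38 genes, against 67.5% of all tested genes. Of these, 27 fell and 2 rose, against 33.8% lower and 33.7% higher without overlap among all genes. Without knockdown replicates 1 and 2 the counts were again 28 and 3, now of 39 tested genes. The rising genes were not the same 3, since COL2A1 then passed. With upper-quartile scaling, which shifted all genes by 0.20 on the log2 scale, 28 fell and 6 rose.

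**Figure D1:**
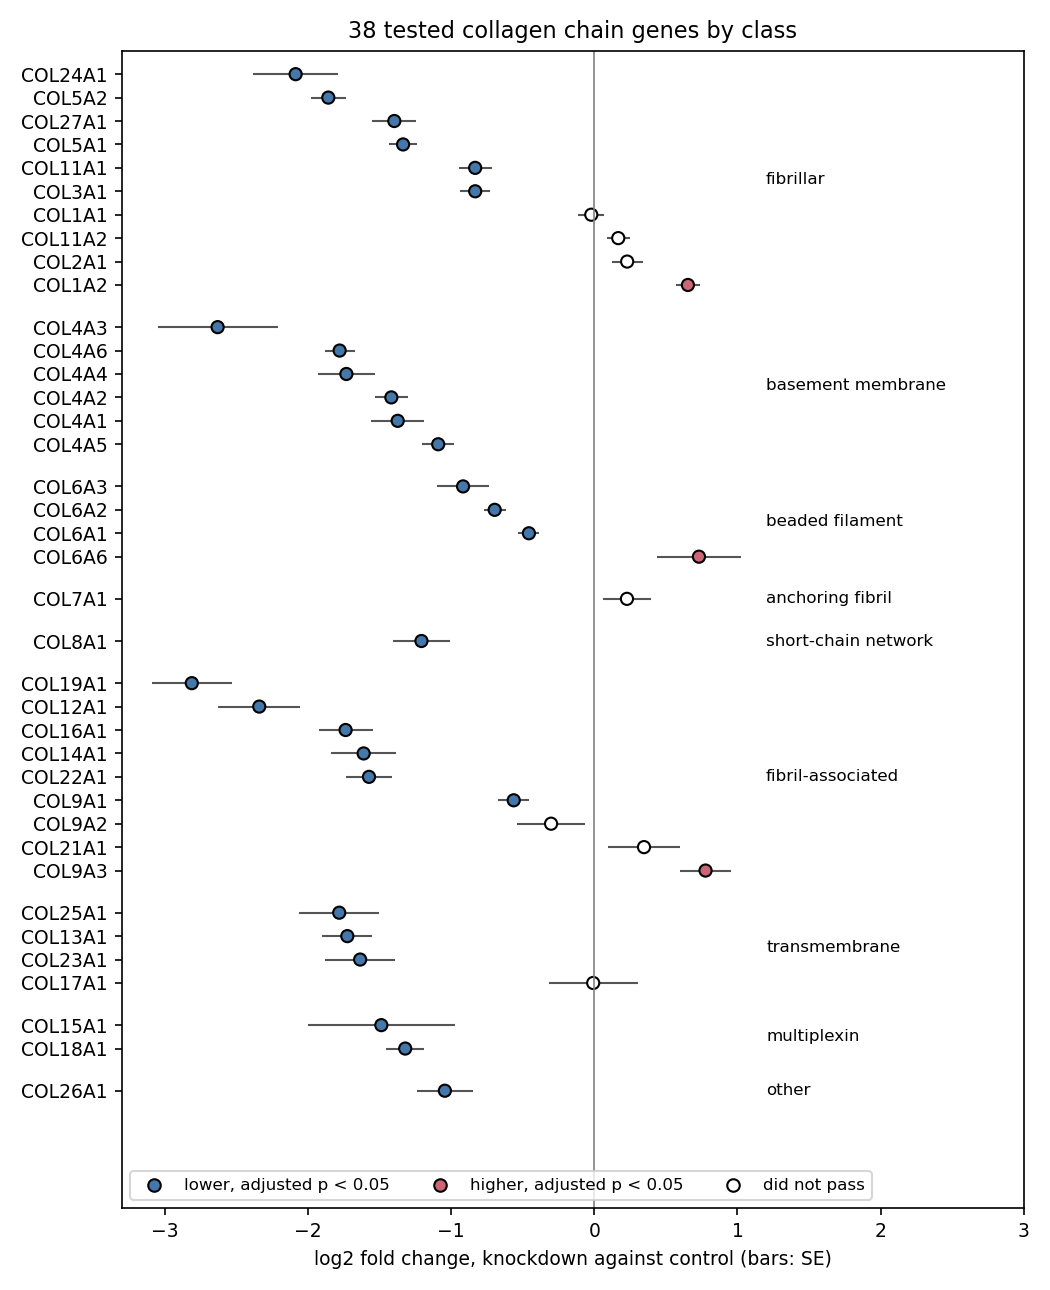
The log2 fold change (x axis, knockdown against control, bars are SE) of each of the 38 tested chain genes (y axis), grouped by structural class, with filled points for genes that passed at an adjusted p below 0.05. All 6 basement membrane chains lie to the left of 0, while the fibrillar class runs from -2.09 for COL24A1 to 0.65 for COL1A2.

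As a group the chains took 0.599% ± 0.0207 of a control library and 0.318% ± 0.0418 of a knockdown library (SD, n = 5, all counts). The control libraries lay at 0.585%, 0.599%, 0.601%, 0.58% and 0.633% for replicates 1 to 5, and the knockdown libraries at 0.314%, 0.389%, 0.301%, 0.279% and 0.305%. Every control share was above every knockdown share, and knockdown replicate 2 had the highest share of its group. Of the counts outside the mitochondrial genome the chains took 0.675% in the controls and 0.371% in the knockdown.

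To compare chains with each other, levels were divided by the exonic length of each gene (CPM per kb). This length merges the exons of all annotated transcripts, whether or not these cells use them. It was 8.46 kb for COL18A1, 7.32 kb for COL5A2 and 19.3 kb for COL4A2. Before this division COL18A1 and COL4A2 had 1102 and 1067 CPM in the controls. The order of the chains and the shares of the classes hold for the scale of CPM per kb only. On this scale COL18A1 was the most abundant chain gene in control libraries, at 130.2 ± 5.7 CPM per kb (SD, n = 5), followed by COL3A1 at 92.5 and COL5A2 at 90.2, whose ranges over libraries overlapped. COL4A2 came next at 55.4, then COL1A1, COL4A1 and COL2A1 at 41.8, 41.6 and 40.2 with overlapping ranges, and COL6A1 and COL5A1 at 31.9 and 29.5, also overlapping. In the knockdown the order changed. COL18A1 and COL3A1 remained on top at 52.1 and 51.9 CPM per kb, followed by COL2A1 at 47.1 and COL1A1 at 41.2, and all of these neighbours overlapped. COL5A2 stood at rank 5, COL4A2 moved from rank 4 to rank 7 and COL1A2 from rank 13 to rank 9.

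**Figure D2:**
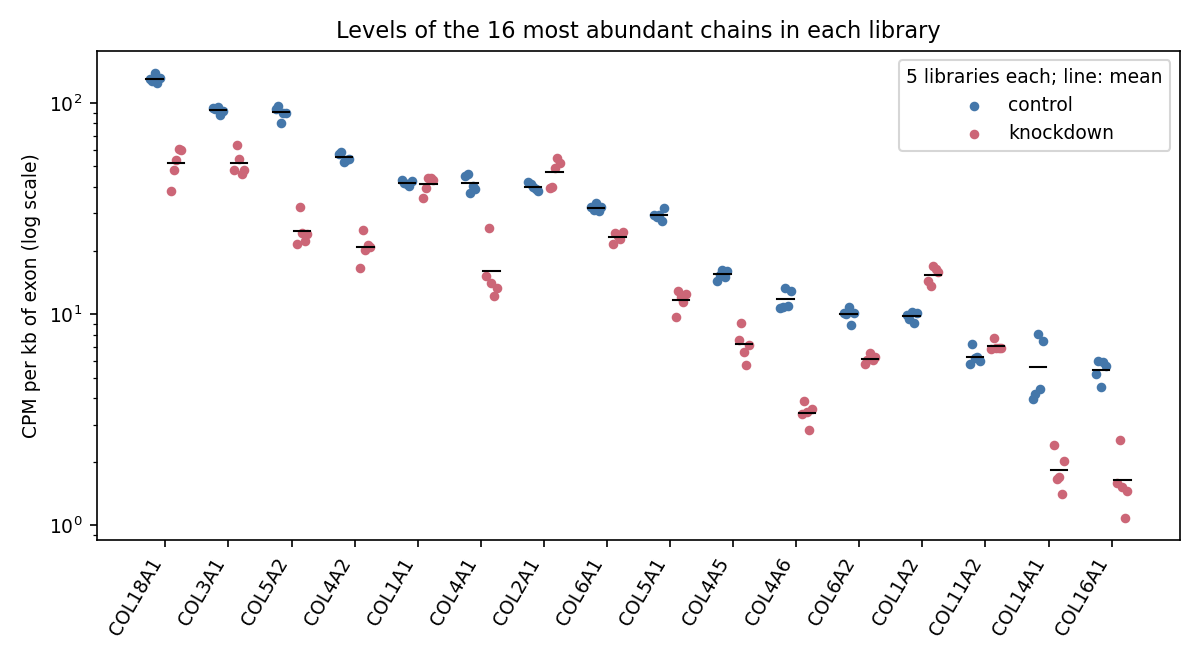
CPM per kb of exon (y axis, log scale) in each of the 5 control and 5 knockdown libraries for the 16 most abundant chains (x axis, ordered by control mean), with a line at each mean. COL1A1 overlaps between the groups, COL1A2 is higher in every knockdown library, and COL5A2, COL4A1 and COL4A2 are lower in every one.

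Summed over the 44 chains, the level was 644 ± 14.7 CPM per kb in the controls and 350.1 ± 28 in the knockdown (SD, n = 5). Fibrillar chains made up 48.5% ± 0.514 of this sum in control and 57.3% ± 1.26 in knockdown libraries. Basement membrane chains went from 19.3% ± 0.48 to 13.5% ± 1.91. The multiplexins, almost entirely COL18A1, went from 20.2% ± 0.886 to 14.9% ± 2.17, and the beaded filament chains from 6.53% ± 0.252 to 8.47% ± 0.403. In each of these 4 classes the ranges of the groups were apart. These shares are descriptions over the chosen genes and were not tested.

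**Figure D3:**
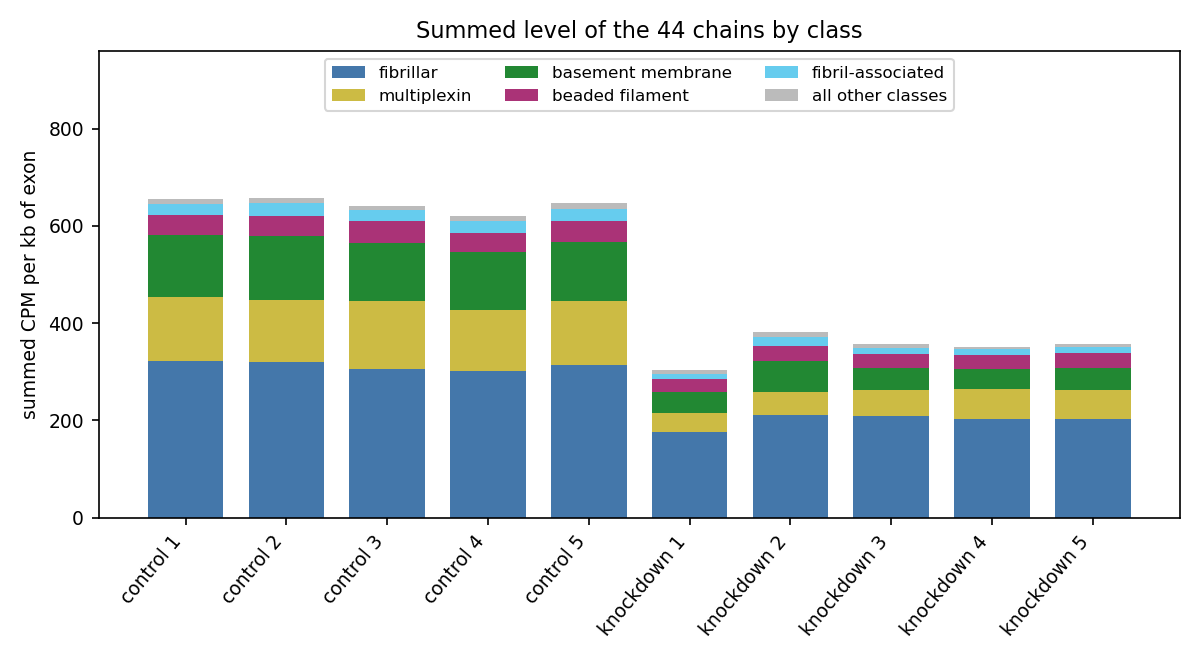
Summed CPM per kb of exon of the 44 chains (y axis) in each library (x axis), stacked by structural class. The sum lies between 621 and 658 in control and between 304 and 381 in knockdown libraries, and the fibrillar part takes a larger portion of the knockdown bars.

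Among the fibrillar collagens 6 of 10 tested genes fell, 1 rose and 3 did not pass. Neither chain gene of collagen I, the stiff fibril former of mature interstitium, fell. COL1A1 (ENSG00000108821, chromosome 17, 50184101 to 50201632 on the minus strand, GRCh38) lay at 389, 374, 374, 365 and 382 CPM in control replicates 1 to 5 and at 318, 355, 399, 398 and 387 CPM in the knockdown. The groups overlapped, and the difference did not pass (log2 fold change -0.02 ± 0.0916 SE, adjusted p = 0.83 in edgeR's quasi-likelihood test). The sign of this value changed with the scaling (log2 fold change 0.0047 with DESeq2 size factors and 0.18 with upper-quartile factors). COL1A2 (ENSG00000164692, chromosome 7, 94394895 to 94431227 on the plus strand), which encodes the other chain of collagen I, lay at 107, 103, 111, 98.4 and 110.0 CPM in the controls and 154, 147, 183, 176 and 171 CPM in the knockdown. Every knockdown library was above every control (log2 fold change 0.65 ± 0.0854 SE, adjusted p = 1.6e-05), a 1.57-fold rise.

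COL3A1 (ENSG00000168542, chromosome 2, 188974373 to 189012746 on the plus strand), whose product co-assembles with collagen I in compliant fibrils, lay at 639.7, 632, 648, 589.8 and 616 CPM in the controls and 323, 428, 365, 313 and 326 CPM in the knockdown. The groups were apart, with replicate 2 highest in the knockdown (log2 fold change -0.83 ± 0.106 SE, adjusted p = 1.3e-05). Its neighbour COL5A2 (ENSG00000204262, chromosome 2, 189031898 to 189225312 on the minus strand) encodes a chain of collagen V, which starts and thins fibrils. COL5A2 lay at 688, 704, 589, 659 and 659 CPM in the controls and 158, 236, 178, 163 and 176 CPM in the knockdown, 3.63-fold lower (log2 fold change -1.86 ± 0.124 SE, adjusted p = 1e-07). Knockdown replicate 2 stood above the other knockdown libraries but far below the controls. COL5A1 (ENSG00000130635, chromosome 9, 134641803 to 134844843 on the plus strand), the other main chain of collagen V, fell from 329 ± 17.3 to 130.2 ± 14 CPM (mean ± SD of 5 libraries, log2 fold change -1.34 ± 0.097 SE, adjusted p = 1.7e-07), with no overlap.

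COL2A1 (ENSG00000139219, chromosome 12, 47972967 to 48004554 on the minus strand), the fibrillar chain of cartilage that is also transcribed in early embryonic tissues, lay at 282, 274, 266, 260.1 and 256 CPM in the controls and 264, 267, 328, 364 and 346 CPM in the knockdown. Knockdown replicates 1 and 2 lay within the control range and the other 3 above it, and the difference did not pass (log2 fold change 0.23 ± 0.109 SE, adjusted p = 0.069). It passed without knockdown replicate 1 (log2 fold change 0.29), without replicate 2 (0.27), without both (0.36), with upper-quartile factors (0.43), in DESeq2 (0.26) and among genes with a mean of at least 1 CPM (0.28). Collagen XI nucleates fibrils together with collagen II. COL11A2 had 46.3 ± 4.04 CPM in the controls and 52 ± 2.68 CPM in the knockdown (log2 fold change 0.17 ± 0.0806 SE, adjusted p = 0.074) and did not pass, but did with DESeq2 size factors (0.19), with upper-quartile factors (0.36), in DESeq2 (0.19), with the 1 CPM filter (0.22) and without control replicate 2 (0.20). Its partner COL11A1 fell 1.78-fold, from 11.8 ± 1.28 to 6.64 ± 0.817 CPM. COL24A1 and COL27A1, which encode minor fibrillar chains, fell 4.25-fold and 2.63-fold, from 1.07 and 16 CPM in control libraries.

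The 6 collagen IV genes, which encode the network of the basement membrane, all fell, with log2 fold changes from -2.63 to -1.09. They lie in head-to-head pairs on chromosomes 13, 2 and X. By their RefSeq starts, 126 bases lie between COL4A1 and COL4A2, while GENCODE also lists a COL4A2 transcript that starts at 110305812, inside COL4A1. Sequence from between the RefSeq starts is shown for the abundant pairs, because both genes of each pair fell, though COL4A5 and COL4A6 by different amounts. Capitals mark CCAAT (or ATTGG, its other strand), the element bound by NF-Y, and GGGCGG (or CCGCCC), the GC box bound by SP1. TATAAA (or TTTATA) was searched as well and is in neither stretch. The motifs do not overlap each other. Both stretches are RefSeq sequence of GRCh38.p14 on the plus strand, 5′ to 3′. The first is the 100 bases next to the RefSeq start of COL4A1, toward that of COL4A2 (chr13:110307158-110307257), and the second is the 250 bases before the RefSeq start of COL4A5, toward COL4A6 (chrX:108439588-108439837).
COL4A1-COL4A2: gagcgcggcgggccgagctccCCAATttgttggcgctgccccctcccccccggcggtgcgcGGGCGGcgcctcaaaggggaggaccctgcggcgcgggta
COL4A6-COL4A5: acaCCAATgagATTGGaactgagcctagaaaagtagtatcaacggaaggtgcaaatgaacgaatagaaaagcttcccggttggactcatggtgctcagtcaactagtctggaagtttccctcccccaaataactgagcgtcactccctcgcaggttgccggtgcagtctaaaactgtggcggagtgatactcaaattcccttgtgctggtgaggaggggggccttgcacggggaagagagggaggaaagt

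The first stretch holds 1 CCAAT, starting at base 22, and 1 GGGCGG, starting at base 62. The second holds CCAAT on both strands (starting at bases 4 and 12) and no GC box. Of 35116 RefSeq promoters, 18.1% hold CCAAT and 31.3% GGGCGG in the 100 bases before the start, and 32% and 42.6% in the 250 bases before it, while TATAAA is in 4.99% and 10.7%. The table had 44 promoters for 32 of the 44 chain genes, and 12 of these promoters held CCAAT and 24 GGGCGG in the 250 bases. In the 100 bases before the start 2 of the 44 held CCAAT and 18 GGGCGG. A match is a description of these letters and not of binding. COL1A1, COL1A2, COL2A1, COL3A1, COL5A2, COL6A1, COL6A5, COL8A1, COL9A3, COL14A1, COL20A1 and COL22A1 had no entry.

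COL4A1 (ENSG00000187498, chromosome 13, 110148963 to 110307157 on the minus strand) and COL4A2 (ENSG00000134871, chromosome 13, 110305812 to 110513209 on the plus strand) encode the chains of the most widespread collagen IV trimer. COL4A1 lay at 659, 676, 550.1, 592 and 573 CPM in the controls and 223, 374, 206, 178 and 196 CPM in the knockdown. Knockdown replicate 2 stood well above the other 4, and still below every control (2.59-fold lower, log2 fold change -1.37 ± 0.187 SE, adjusted p = 2.3e-05). COL4A2 lay at 1107, 1129, 1014, 1038 and 1048 CPM in the controls and 320.2, 480.2, 387, 409 and 400.1 CPM in the knockdown. The groups were far apart (2.67-fold lower, log2 fold change -1.42 ± 0.117 SE, adjusted p = 4e-07). COL4A5 and COL4A6, whose products pair in smooth muscle and some epithelial basement membranes, fell 2.13-fold and 3.43-fold. COL4A5 lay at 171, 182, 193, 178 and 191 CPM in the controls and 89.7, 108, 78.9, 68.3 and 84.7 CPM in the knockdown, and COL4A6 at 99.4, 101, 124, 102 and 119.8 and 31.4, 36.1, 32, 26.2 and 33 CPM. COL4A3 and COL4A4, the chains typical of the kidney's filter, were rare (0.723 to 0.116 CPM and 2.76 to 0.835 CPM) and fell 6.2-fold and 3.32-fold, the first on 140 control and 22 knockdown counts. The noncoding RNA gene MFF-DT on the opposite strand, at 1.27 CPM in the controls and 0.505 CPM in the knockdown, shares 838 bases of exon with COL4A3. Counts of such pairs are uncertain, since the strand setting of the counting is not given in the sources used here.

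Collagen VI makes beaded filaments that link cells to the fibrils around them, and its common chains COL6A1, COL6A2 and COL6A3 had log2 fold changes between -0.92 and -0.46, while those of the 6 collagen IV chains lay between -2.63 and -1.09. The difference between the classes, and the part of gene length in it, was not tested. With introns, COL6A1, COL6A2 and COL6A3 are 23.3, 34.7 and 90.3 kb long, and the collagen IV genes 150 to 284 kb. Coding genes of like length had median log2 fold changes of 0.27 for COL6A1 and -0.48 for COL6A2 and COL6A3. For the collagen IV genes this median was -1.30. COL6A1 (ENSG00000142156, chromosome 21, 45981770 to 46005050 on the plus strand) lay at 178, 172, 185, 169.6 and 179 CPM in the controls and 119.5, 134, 129.6, 126 and 135 CPM in the knockdown (log2 fold change -0.46 ± 0.0738 SE, adjusted p = 9.4e-05). COL6A2 lay at 53.9, 53.1, 57.7, 47.2 and 53.8 CPM in the controls and 30.8, 32.4, 34.7, 32.4 and 33.6 CPM in the knockdown (log2 fold change -0.70 ± 0.0769 SE, adjusted p = 3.9e-06). In both genes the groups were apart and the knockdown libraries lay close together. COL6A3, the large chain that completes the trimer, fell 1.89-fold, from 2.48 ± 0.537 CPM to 1.31 ± 0.176 CPM in the knockdown (SD, n = 5). Per length it stood at 0.115 CPM per kb in control libraries against 31.9 for COL6A1. COL6A6, an alternative long chain, rose from 0.443 ± 0.161 to 0.73 ± 0.182 CPM with overlapping groups (log2 fold change 0.73 ± 0.294 SE, adjusted p = 0.037), but it did not pass without control replicate 1 or 2 or knockdown replicate 1, 3 or 4, nor without the filter on low counts, nor under the replicate block (adjusted p = 0.074, and 0.013 to 0.11 over the alternatives run). COL6A5 had 3 counts in all libraries together and was not tested.

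COL7A1, the anchoring fibril collagen of skin and other epithelia, lay at 35.6 to 58.8 CPM in the controls and 43 to 69.6 CPM in the knockdown and did not pass (log2 fold change 0.23 ± 0.165 SE, adjusted p = 0.22), except with upper-quartile factors (0.42). Of the short-chain network collagens only COL8A1, made by vascular and endocardial cushion cells, was tested. It fell 2.31-fold, from 28.4 ± 3.41 to 12.3 ± 4.52 CPM (SD, n = 5). COL8A2 and COL10A1, the latter a marker of hypertrophic cartilage, had 78 and 37 counts in all 10 libraries and were not tested.

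The fibril-associated collagens sit on the surface of fibrils and held the largest fall and 1 of the 3 rises. Of 9 tested genes 6 fell, 1 rose and 2 did not pass. COL12A1 (ENSG00000111799, chromosome 6, 75084326 to 75206267 on the minus strand), found in tissues under tension, lay at 59.1, 71.3, 30.2, 53.9 and 50.5 CPM in the controls and 6.89, 18.6, 10.2, 8.3 and 8.19 CPM in the knockdown, 5.07-fold lower (log2 fold change -2.34 ± 0.286 SE, adjusted p = 9.6e-06). The controls varied more than for most chains, from replicate 3 at the bottom to replicate 2 at the top, and no knockdown library reached them. COL19A1 (ENSG00000082293, chromosome 6, 69866556 to 70212468 on the plus strand), a rare chain of basement membrane zones, had the largest fall of the tested chains, 7.02-fold, from 7.54, 8.78, 8.17, 7.95 and 9.29 to 1.27, 1.76, 1, 0.364 and 1.45 CPM (log2 fold change -2.81 ± 0.279 SE, adjusted p = 1.7e-06). Its exons share 85 bases with LMBRD1 on the opposite strand, at 11.3 CPM in the controls and 6.92 CPM in the knockdown. COL16A1 fell 3.34-fold from 50.6 ± 5.67 to 15.1 ± 4.94 CPM, COL14A1 3.06-fold from 57.2 ± 20.0 to 18.7 ± 3.89 CPM, and COL22A1, a collagen of tissue junctions such as that of muscle and tendon, 2.98-fold from 16.9 ± 1.27 to 5.66 ± 1.52 CPM (SD, n = 5).

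COL21A1 stood apart in this class. It lay at 37.5, 44.4, 21.7, 34.7 and 21 CPM in the controls and 29.6, 65.6, 34.9, 38.1 and 34.4 CPM in the knockdown. The groups overlapped, knockdown replicate 2 was the highest of all 10 libraries, and the difference did not pass (log2 fold change 0.35 ± 0.251 SE, adjusted p = 0.22). The chains of collagen IX, which coats collagen II fibrils, went different ways. COL9A1 fell 1.48-fold, from 23.6 ± 3.55 to 16 ± 0.976 CPM, COL9A3 rose 1.71-fold, from 1.57 ± 0.125 to 2.69 ± 0.691 CPM with no overlap, and COL9A2, at 0.646 ± 0.147 and 0.527 ± 0.121 CPM (SD, n = 5), did not pass (log2 fold change -0.30 ± 0.238 SE, adjusted p = 0.26). COL9A3 shares 155 bases of exon with TCFL5 on the opposite strand, whose own level was 5.71 CPM in the controls and 1.66 CPM in the knockdown.

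The transmembrane collagens, which are shed from cell surfaces, had control means of at most 11.6 CPM. COL13A1, found at adhesive junctions, fell 3.31-fold from 11.6 ± 0.557 to 3.48 ± 1.07 CPM (SD, n = 5), COL23A1 3.11-fold from 4.49 ± 0.333 CPM, and COL25A1 3.44-fold from 4.98 ± 1.73 CPM. COL17A1, the hemidesmosomal collagen of epithelia, did not pass (0.478 ± 0.191 and 0.479 ± 0.13 CPM), and the sign of its log2 fold change turned with the scaling (-0.01, against 0.188 with upper-quartile factors). The multiplexins carry an antiangiogenic fragment at their end, endostatin in the case of collagen XVIII. COL18A1 (ENSG00000182871, chromosome 21, 45405165 to 45513720 on the plus strand), a heparan sulfate proteoglycan of basement membranes, lay at 1104, 1069, 1173, 1047 and 1116 CPM in the controls and 324, 409, 455, 512 and 504 CPM in the knockdown. The groups were far apart, with replicate 1 lowest in the knockdown (2.5-fold lower, log2 fold change -1.32 ± 0.131 SE, adjusted p = 1.7e-06). Its exons share 1563 bases with those of SLC19A1 on the opposite strand, at 10.5 CPM in the controls and 4.97 CPM in the knockdown. COL15A1 fell from 0.409 ± 0.214 to 0.145 ± 0.12 CPM with overlapping groups (adjusted p = 0.018, 0.056 without control replicate 1, and 0.0042 to 0.056 over the alternatives run). COL26A1, which lies outside these classes, fell 2.06-fold. COL5A3, COL20A1 and COL28A1 had 34, 45 and 49 counts in all and were not tested.

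Chains that build a trimer together, or whose genes are neighbours, did not always move by the same amount. For 11 pairs with both genes tested, the log2 ratio of their counts within each library was compared between the groups (exact permutation test over all labelings of 5 against 5 libraries, two-sided, smallest possible p 0.00794, Benjamini-Hochberg adjustment over the 11 pairs). In 8 pairs the ratio differed, and in 6 of these the groups did not overlap. Each of the 6 had p = 0.00794 and adjusted p = 0.0146 in the exact permutation test. Ratios of other gene pairs were not run for comparison, and 79.7% of all tested genes differed singly. Partner genes can differ widely in length with introns, such as 232 kb for COL11A1 and 29.8 kb for COL11A2. The part of this length in the ratios was not tested. The ratio of COL1A1 to COL1A2 counts had a log2 value of 1.87, 1.87, 1.75, 1.89 and 1.80 in control and 1.04, 1.27, 1.13, 1.17 and 1.18 in knockdown libraries, that is, it went from 3.57 to 2.23. COL11A1 to COL11A2 went from 0.255 to 0.127, a change of 2-fold, and COL3A1 to its neighbour COL5A2 from 0.949 to 1.94, a change of 2.04-fold. Collagen V moved toward COL5A1 (0.499 to 0.72 of COL5A2) and collagen VI slightly toward COL6A1 (3.33 to 3.92 times COL6A2).

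Of the head-to-head pairs, COL4A5 and COL4A6 shifted and COL4A1 and COL4A2 did not in this test. COL4A5 to COL4A6 went from 1.68 to 2.69, with log2 values of 0.78, 0.86, 0.64, 0.81 and 0.67 in control and 1.52, 1.57, 1.30, 1.38 and 1.36 in knockdown libraries. COL4A1 to COL4A2 was 0.57 in control and 0.573 in knockdown libraries (exact permutation p = 0.984, n = 5). The controls lay close together, at log2 values of -0.75, -0.74, -0.88, -0.81 and -0.87, and the knockdown libraries on either side of them, at -0.52, -0.36, -0.91, -1.20 and -1.03. Without knockdown replicates 1 and 2, which had the highest ratios, the log2 difference was -0.24 (exact permutation, adjusted p = 0.0491, against 0.444 to 1 in the other alternatives). COL4A3 to COL4A4 and COL9A1 to COL9A2 did not pass (exact permutation, adjusted p = 0.175 and 0.297), and COL6A3 to COL6A1 and COL9A3 to COL9A2 passed with overlapping groups (exact permutation, adjusted p = 0.0327 for both). The first did not pass without any single library other than control replicate 1 and knockdown replicates 1 and 2, and the second without any single library other than control replicates 2 and 4 and knockdown replicate 4 (exact permutation, adjusted p = 0.0655 in each case).

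**Figure D4:**
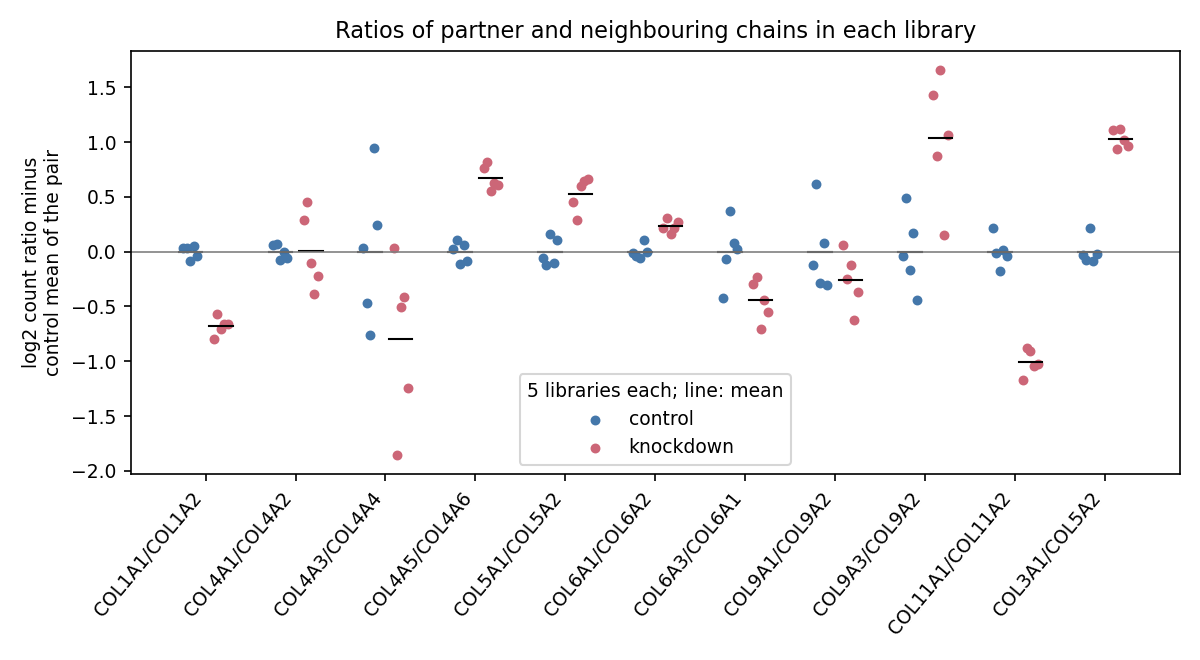
The log2 ratio of the counts of 2 chains in each library, minus the control mean of that pair (y axis), for 11 pairs (x axis), with 5 control and 5 knockdown libraries and a line at each mean. COL1A1/COL1A2 and COL11A1/COL11A2 lie below 0 and COL4A5/COL4A6 and COL3A1/COL5A2 above it in every knockdown library, while COL4A1/COL4A2 scatters around 0.

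Collagen genes differ widely in span, the genomic length of a gene including its introns, and fold changes in this table run with span. The median span was 158 kb for the 38 tested chains and 33.9 kb for the 14777 tested coding genes. Of the 28 chains spanning 50 kb or more, 25 fell and 1 rose, and of the 10 shorter chains 3 fell, 2 rose and 5 did not pass. The rank correlation of fold change with span was -0.60 over the 38 chains and -0.599 over the coding genes, a description over genes that share the same libraries. In the class of 100 to 300 kb, 16 of 17 chains fell (median log2 fold change -1.40), and 82.7% of 2434 coding genes fell with a median of -1.30. In the class over 300 kb, 6 of 7 chains and 93.4% of 696 coding genes fell, with medians of -1.64 and -2.09. In the class of 30 to 100 kb, 5 of 9 chains fell and 1 rose, while 57% of 4783 coding genes fell and 23.2% rose, with medians of -0.56 and -0.48. In the class of 10 to 30 kb, 1 of 5 chains fell and 1 rose, while 29.1% of 4068 coding genes fell and 48.9% rose, with medians of -0.02 and 0.27.

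Single chains lay on either side of their span class. COL5A2 and COL3A1 are neighbours with log2 fold changes of -1.86 and -0.83, and they span 193 and 38.4 kb. COL1A1 and COL1A2 span 17.5 and 36.3 kb, and COL1A2, the longer one, lay above the upper quartile of its class (0.20). COL16A1, at 52.1 kb and -1.74, COL12A1, at 122 kb and -2.34, and COL4A3, at 150.2 kb and -2.63, lay below the lower quartiles of their classes (-1.13 for the first, -1.87 for the others). COL21A1, at 338 kb and 0.35, and COL6A6, at 159.9 kb and 0.73, lay above the upper quartiles of theirs (-1.52 and -0.62). Of the 38 chains 23 lay below and 15 above the median of their class. The part of gene span in these fold changes was not tested.

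**Figure D5:**
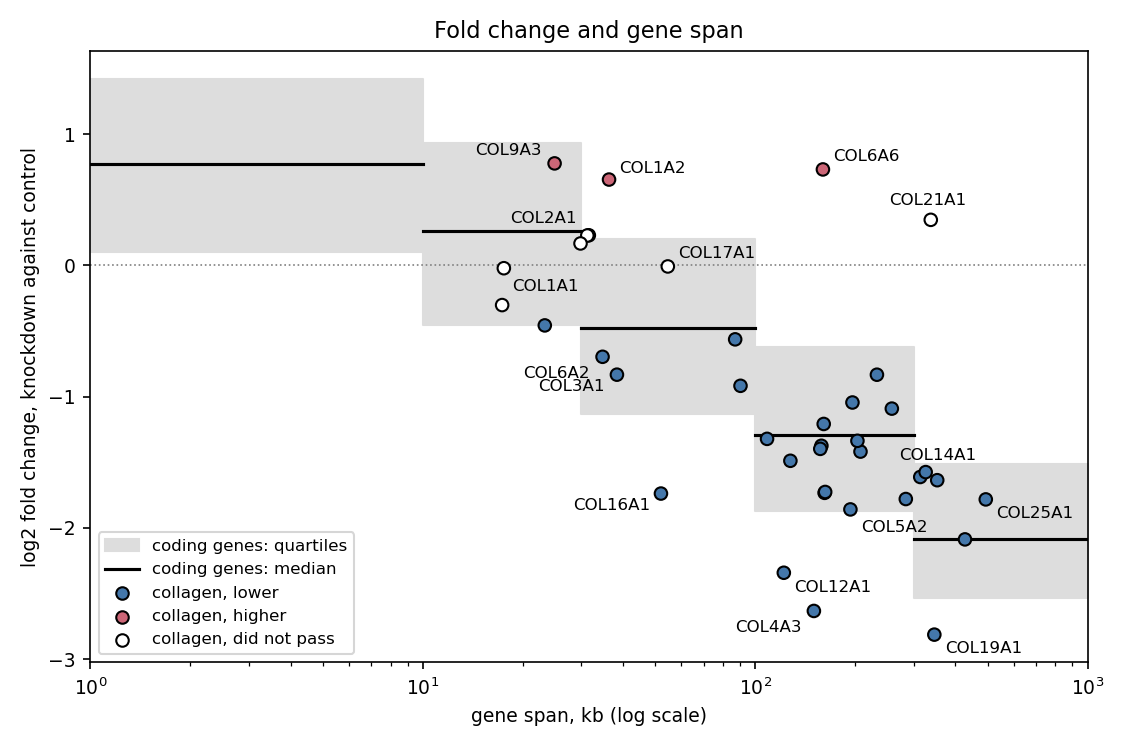
The log2 fold change (y axis) of the 38 tested chains against gene span in kb (x axis, log scale), with the median (line) and quartiles (grey) of all tested coding genes in 5 span classes. The outer classes are open-ended and drawn to the ends of the axis. COL21A1, COL6A6 and COL1A2 lie clearly above the grey boxes, and COL12A1, COL4A3, COL16A1 and COL19A1 below them.

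The knockdown libraries differed among themselves. In 17 of the 28 falling chains knockdown replicate 2 had the highest level of the knockdown group, among them COL4A1, COL4A2, COL5A2, COL3A1, COL12A1 and COL16A1. The same count over all falling genes was not made, so it cannot be read as a trait of the chains. COL18A1 was highest in replicate 4 and COL14A1 in replicate 1, so the order was not the same for every chain. COL1A2, which rose, was lowest in replicate 2 at 147 CPM and highest in replicate 3 at 183 CPM.

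The genes that modify, fold, export, cleave, bind and degrade collagen were read from the same fit, in lists chosen with earlier results of these data known. Over 8 lists with 124 tested genes, 87 fell and 18 rose. Their median log2 fold change was -0.78, and the counts stand beside 39.6% lower and 40.1% higher genes overall. Of the hydroxylases and glycosyltransferases that modify prolines and lysines, 9 of 15 tested genes fell and 2 rose. COLGALT1, which adds galactose to hydroxylysine, fell from 98.2 ± 6.25 to 36.2 ± 3.99 CPM (mean ± SD of 5 libraries, log2 fold change -1.44 ± 0.0917 SE, adjusted p = 7.3e-08) and P3H4, a partner of lysyl hydroxylase, 2.33-fold, while the prolyl 3-hydroxylase genes P3H1 and P3H3 rose 1.97-fold and 1.55-fold. Of the folding and export genes, 9 of 14 tested genes fell and 3 rose (5 rose with upper-quartile factors). SERPINH1, which encodes HSP47, the collagen-specific chaperone, rose from 282 ± 14.2 to 778 ± 209 CPM (mean ± SD of 5 libraries, log2 fold change 1.46 ± 0.172 SE, adjusted p = 6.8e-06), and the transport factor gene TRAPPC2 3.65-fold. SEC24D, a subunit of the coat of vesicles that leave the endoplasmic reticulum, and SEC23IP, which binds that coat, fell 2.63-fold and 2.04-fold.

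Of the genes of procollagen cleavage and cross-linking, 13 of 15 tested genes fell and 1 rose. BMP1, the protease that removes the carboxyl propeptide of fibrillar procollagens, fell from 65.9 ± 1.53 to 27.5 ± 2.32 CPM (mean ± SD of 5 libraries, log2 fold change -1.26 ± 0.079 SE, adjusted p = 6.5e-08), and its relative TLL1 8.08-fold. PCOLCE, which enhances this cleavage, rose 2.72-fold from 5.86 CPM. Of the collagen receptors, 9 of 12 tested genes fell and 2 rose, with the adhesion receptor gene ADGRG6 4.62-fold and the integrin gene ITGA11 1.86-fold lower, and its relative ADGRG1 3.45-fold and the discoidin domain receptor gene DDR1 1.23-fold higher (the call on DDR1 was lost without control replicate 5, adjusted p = 0.055, and ranged from 0.00011 to 0.068 over the alternatives run).

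All 13 tested partners of collagen IV in the basement membrane fell, as did all 6 collagen IV chains, against 39.6% of all tested genes. Of coding genes spanning 30 to 100 kb, 100 to 300 kb and over 300 kb, 57%, 82.7% and 93.4% fell. Spans of the partners ran from 12 kb for LAMB2 upward, and the part of span in their fall was not tested. LAMA2, a laminin chain of muscle that spans 633 kb, fell from 696 ± 38 to 111 ± 32.5 CPM (mean ± SD of 5 libraries, log2 fold change -2.65 ± 0.177 SE, adjusted p = 1e-07). Of the fibril partners and small proteoglycans, 10 of 15 tested genes fell and 1 rose. FBN2, the fibrillin of embryonic microfibrils, fell from 2210.1 ± 101 to 377 ± 151 CPM (SD, n = 5) and TNC, which encodes tenascin C, 3.69-fold, while SPARC, which binds collagen, rose 1.74-fold. Of the degradation genes, 8 of 13 tested genes fell and 4 rose. The matrix metalloproteinase genes MMP14 and MMP11 rose 1.79-fold and 1.72-fold, and TIMP2, an inhibitor of matrix proteases, and PEPD, which frees proline from collagen fragments, fell 2.62-fold and 4.95-fold. Proteases and inhibitors each moved both ways, since MMP15 fell 2.55-fold from 1208 CPM and TIMP1, another inhibitor, rose 2.4-fold. Of the growth factors and transcription factors known to act on collagen genes, 16 of 27 tested genes fell and 5 rose. SMAD2, which carries the signal of TGF-beta, fell from 119 ± 6.65 to 37.4 ± 8.17 CPM and SOX6, a partner of SOX9 in cartilage, 4.78-fold, while SP1 rose from 74 ± 6.42 to 173 ± 8.87 CPM (SD, n = 5) and the inhibitory SMAD7 2.3-fold.

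Markers of other cell types that make collagen were measured beside these results, and their part in them was not tested. Of 13 fibroblast and mesenchymal markers 10 were tested, 6 fell and 2 rose, and their summed level was 324 to 371 CPM in the controls and 249 to 289.8 CPM in the knockdown. MEOX1, FAP and TCF21 stayed below 1 CPM in every library, and PDGFRA had 16.8 and 14.8 CPM. POSTN, the most abundant of the list, fell from 174 to 111 CPM, and FBLN1, FBLN2, LUM, PDGFRB and DCN fell too. THY1 rose from 1.7 to 11.3 CPM and S100A4 from 27 to 46.5 CPM. Of 8 smooth muscle and pericyte markers 6 fell and 1 rose, with sums of 1658 to 2955 CPM in the controls and 855 to 1298 CPM in the knockdown. Of 11 endothelial markers 7 were tested and 5 fell, with sums of 47.7 to 68.3 CPM in the controls and 23.3 to 30.2 CPM in the knockdown, and PECAM1 and CDH5 stayed below 1 CPM in every library. KDR, the most abundant of that list, fell from 36.5 to 11.6 CPM and EGFL7 from 12.3 to 8.26 CPM. CLDN5, which was not tested, had 0.0477 CPM in the controls and 1.14 CPM in the knockdown. Of 8 epicardial markers 5 were tested, 3 fell and 1 rose. Their sums, 36.8 to 40.6 CPM in the controls and 119 to 196 CPM in the knockdown, were mostly KRT19. WT1, ITLN1, UPK3B, ALDH1A2 and TCF21 were below 1 CPM in every library. Of 13 cardiomyocyte markers 10 fell and none rose.

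The remaining marker lists had sums of 5.67 to 7.21 CPM in the controls and 10.9 to 20.1 CPM in the knockdown for endoderm (2 of 9 tested, 1 rose, mostly APOA1 at 6.03 and 14.9 CPM), 1.86 to 2.66 CPM in the controls and 4.59 to 8.03 CPM in the knockdown for pluripotent cells (5 of 8 tested, 3 rose), 21.8 to 37.5 CPM in the controls and 53.3 to 77.1 CPM in the knockdown for neural cells (4 of 8 tested, 3 rose, mostly TUBB3 at 27.1 and 60.8 CPM) and 294 to 322 CPM in the controls and 292 to 412 CPM in the knockdown for cartilage (5 of 9 tested, 1 rose and 2 fell). The cartilage sum was mostly COL2A1, itself a chain of this family, and ACAN, the proteoglycan that defines cartilage, had 0.163 CPM in the controls and 0.302 CPM in the knockdown. SOX9, which drives COL2A1 and COL11A2 in cartilage, rose from 9.48 to 18.1 CPM with overlapping groups. Its partner SOX6 fell 4.78-fold and COL9A1, of the cartilage list, 1.48-fold. COL2A1 and COL11A2 passed only in alternatives, and a part of SOX9 in their levels was not tested.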

How the data were processed

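Total RNA was depleted of ribosomal RNA and made into stranded libraries, per the labels' protocols. The authors deposited 1 table of raw counts of reads per gene (78932 identifiers). Per the submitters' processing notes and the series' design text, trimming was by Trim Galore 0.65, alignment to GRCh38 by STAR 2.7.0 with GENCODE 38, and counting by HTSeq, with no version or strand setting named. The table also holds identifiers that are not in GENCODE 44, so the release behind the counts is uncertain, and with it the exon lengths behind CPM per kb. Columns were matched to samples through their titles and 0 columns were left out.

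Names, spans and exon lengths came by identifier from GENCODE 44 on the same assembly, and 17451 identifiers without an entry there (1060 of them tested) stayed in the fit. Genes passing filterByExpr were tested with edgeR 4.0.16 in R 4.3.3 (TMM, robust quasi-likelihood F test, Benjamini-Hochberg over 21033 genes, threshold 0.05). SE was derived from each gene's F statistic. Library pairs all differed by more than counting noise (chi-square over degrees of freedom at least 4.13). Nothing says that replicates were separate cultures, so p-values measure the spread between these samples only. Ratios used counts plus 0.5. Partner ratios were tested by exact permutation. Alternatives also used limma 3.58.1 and DESeq2 1.42.0. Figures were drawn with matplotlib 3.10.9.

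The members, lists, pairs and rules were chosen with earlier results of these data known. All tested chains were named, and from each pathway list the 2 rising and 2 falling genes with the smallest p among those called, of which 1 is not reported here. Marker genes, and SLC19A1, TCFL5, LMBRD1, MFF-DT, MMP15 and TIMP1, were named after their values were seen. The promoter letters are from RefSeq (GRCh38.p14).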

Additional observations from a re-analysis of the deposited data

Results flagged for a closer look

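In groups of 5 libraries, the highest or lowest library was set against the others by its gap to the nearest one relative to the whole range (limit 0.71). Of 100 groups examined 7 had such a library. The limit gives about 1 in 20 for independent, normally distributed values. These groups share the same libraries, so the 7 cannot be weighed against that rate. Knockdown replicate 2 was apart and highest in its group for COL4A1 (374 CPM, the others 178 to 223), COL5A2 (236 CPM, the others 158 to 178), COL11A2 (56.8 CPM, the others 50.5 to 51), COL12A1 (18.6 CPM, the others 6.89 to 10.2) and COL21A1 (65.6 CPM, the others 29.6 to 38.1). Knockdown replicate 1 was apart and lowest for COL9A1 (14.3 CPM, the others 16.2 to 16.7). Among the partner ratios, control replicate 3 was apart and highest for COL3A1 to COL5A2 (log2 ratio 0.137, the others -0.16 to -0.0973). In each of COL4A1, COL5A2, COL9A1 and COL12A1 the library apart stayed below every control, and without it the call stood.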

How the results depend on the processing

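With upper-quartile factors 6 chains rose and in DESeq2 5, against 3 in the report, and the number that fell was 28 under both. When each library was left out in turn, 27 to 28 chains fell and 2 to 4 rose. COL1A1 changed sign with DESeq2 size factors (0.0047), upper-quartile factors (0.179), the DESeq2 test (0.0046), the 1 CPM filter (0.0322), without knockdown replicates 1 and 2 (0.0552), and ranged from -0.0562 to 0.0372 when single libraries were left out. COL17A1 changed sign with DESeq2 size factors (0.018), upper-quartile factors (0.188), the DESeq2 test (0.0182), limma-voom (0.047) and the replicate block (0.0348), and ranged from -0.208 to 0.147 when single libraries were left out. Neither passed under any setting run. The chain share was 0.675% and 0.371% (control and knockdown) of counts outside the mitochondrial genome, and 0.623% and 0.339% when only coding genes were counted. The causes of these moves were not tested.

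Same-numbered libraries were not shown to be pairs. Correlations of their deviations were -0.17, 0.221, 0.105, -0.000432 and -0.0361, and 2 of 5 knockdown libraries correlated best with their own number. With the replicate block 28 chains fell and 2 rose. In the paired sign-flip test of the ratios, which cannot give an exact permutation p below 0.05 with 5 pairs, none passed. The differences were -0.677 for COL1A1/COL1A2, 0.675 for COL4A5/COL4A6, 0.53 for COL5A1/COL5A2, 0.236 for COL6A1/COL6A2, -0.445 for COL6A3/COL6A1, 1.034 for COL9A3/COL9A2, -1.003 for COL11A1/COL11A2 and 1.03 for COL3A1/COL5A2. Leaving out single libraries gave -0.105 to 0.104 for COL4A1/COL4A2, -0.55 to -0.352 for COL6A3/COL6A1 and 0.878 to 1.255 for COL9A3/COL9A2. Without knockdown replicates 1 and 2 the difference was -0.236 for COL4A1/COL4A2 and 0.959 for COL9A3/COL9A2, which no longer passed. Depth limits the tested chains with a mean under 1 CPM in either group, COL4A3, COL4A4, COL6A6, COL9A2, COL15A1, COL17A1, COL24A1 and COL26A1.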
